A study of Oryza sativa Japonica Group with 64 samples.

Results

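Among 55986 genes counted in rice anthers, 24 met a rule for a low level in the csa mutant under short days (SD) together with a high level in it under long days (LD). Read counts were put on CPM (the reads of a gene as a share of all reads counted in its library, scaled to the same total in each), averaged over the 4 anther libraries of each genotype and photoperiod, and 0.5 was added. A member had a mean of at least 5 in wild type (WT) SD and in csa LD, a csa SD mean of at most 0.5 of the WT SD mean, and a csa LD mean of at least 4 times the WT LD mean. These thresholds were met by 29 genes, and the rule left out by name 9 known genes of pollen wall formation and sugar transport, 5 of which were among the 29. The members were chosen by their group means over all 16 anther libraries, so differences between genotypes and photoperiods in anthers are described here with no test. The contrast between collection times and all flag leaf libraries were not used by the rule and were tested.

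All plants were Oryza sativa ssp. japonica of the line 9522, either WT or csa, and grew in a paddy field. The LD plots had the natural day of about 14.5 h and the SD plots were darkened to give 12 h of light. Anthers at stage 12 were collected at 16:00 and at 04:00, and flag leaves of plants at the same stage were collected at 6 times of day. Each combination of genotype, photoperiod and time had 2 biological replicates, which gave 4 anther libraries in each of WT SD, csa SD, WT LD and csa LD and 12 leaf libraries in each. The labels name neither the csa allele nor the number of plants in a library, and p-values measure the spread between these libraries only.

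The tapetum is the innermost cell layer of the anther wall. It feeds the developing pollen and makes sporopollenin, the polymer of the outer pollen wall, from fatty acids that are activated, extended and reduced in the cell and exported to the pollen surface. The layer then dies by programmed cell death, which in rice is driven in part by the bHLH factor EAT1 through the aspartic proteases AP25 and AP37. The MYB factor CSA is required for sugar to reach the anther, and mutants in it lose pollen fertility when days are short but keep it when they are long.

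Among the members, 3 were in the gene lists drawn up here for these steps. LOC_Os03g08790 is AP25 and LOC_Os04g37570 is AP37, and LOC_Os01g03670 is TKPR2, a tetraketide reductase of sporopollenin synthesis. The names AP25 and AP37 were found in the reference annotation on the chromosome of the identifier, while TKPR2 was not found there and rests on memory. The other 21 members were in none of the lists and are given by identifier. Whether they have a known role was not looked up.

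Total counts lay between 18.05 M and 25.96 M in anther libraries and between 12.91 M and 20.45 M in leaf libraries, so 3 counts in the first anther library of WT SD were worth 0.156 CPM. The transcript of CSA (LOC_Os01g16810) was present in every anther group, at 80.1 to 125.7 CPM in WT and 91.8 to 137.6 CPM in csa under SD, and at 36.6 to 74.0 CPM in WT and 108.6 to 245 CPM in csa under LD, so its level does not check the genotype labels. The clock genes separated the collection times in all 16 anther libraries. LHY (LOC_Os08g06110) had 9.51 to 110.5 CPM at 16:00 and 435.1 to 943.6 CPM at 04:00, and GI (LOC_Os01g08700) had 712.2 to 1669 CPM at 16:00 and 19.4 to 101.4 CPM at 04:00.

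Libraries of the same group and time stood apart in the members. The summed level of the 24 members in WT SD was 3489 and 522.4 CPM in the 16:00 replicates and 2655 and 845.6 CPM in the 04:00 replicates. In csa SD it was 589.9 and 861.2 CPM at 16:00, and 164.9 and 161 CPM at 04:00. In WT LD the sums were 136.1 and 27.7 CPM at 16:00, and 95.8 and 125.4 CPM at 04:00. In csa LD they were 2069 and 1672 CPM at 16:00, and 1627 and 162.9 CPM at 04:00. Replicate 1 of WT SD at both times and 3 of the 4 csa LD libraries were high, WT LD was low in every library, and the second csa LD library at 04:00 was at the level of csa SD at 04:00.

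The sums averaged 1878 ± 1426 CPM for WT and 444.2 ± 343.2 CPM for csa under SD, and 96.3 ± 48.8 CPM for WT and 1383 ± 837.1 CPM for csa under LD (± standard deviation of 4 libraries). WT SD lay above csa SD in every library for 4 of 24 members, where 12.9% of the 25203 genes tested in anthers did so. At 04:00 the second WT SD replicate was above both csa SD libraries in 24 of 24 members (background 43.1%). At 16:00 the second WT SD replicate was below both csa SD libraries in 18 of 24 (background 51.4%). The LD side was wider: csa LD lay above WT LD in every library for 17 of 24 members, with 15.8% of all tested genes as the background, and for 24 of 24 members without the second csa LD library at 04:00 (background 19.1%). These shares come from the contrasts that chose the members. In such bulk samples, fewer cells of a type and less RNA per cell cannot be told apart.

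**Figure D1:**
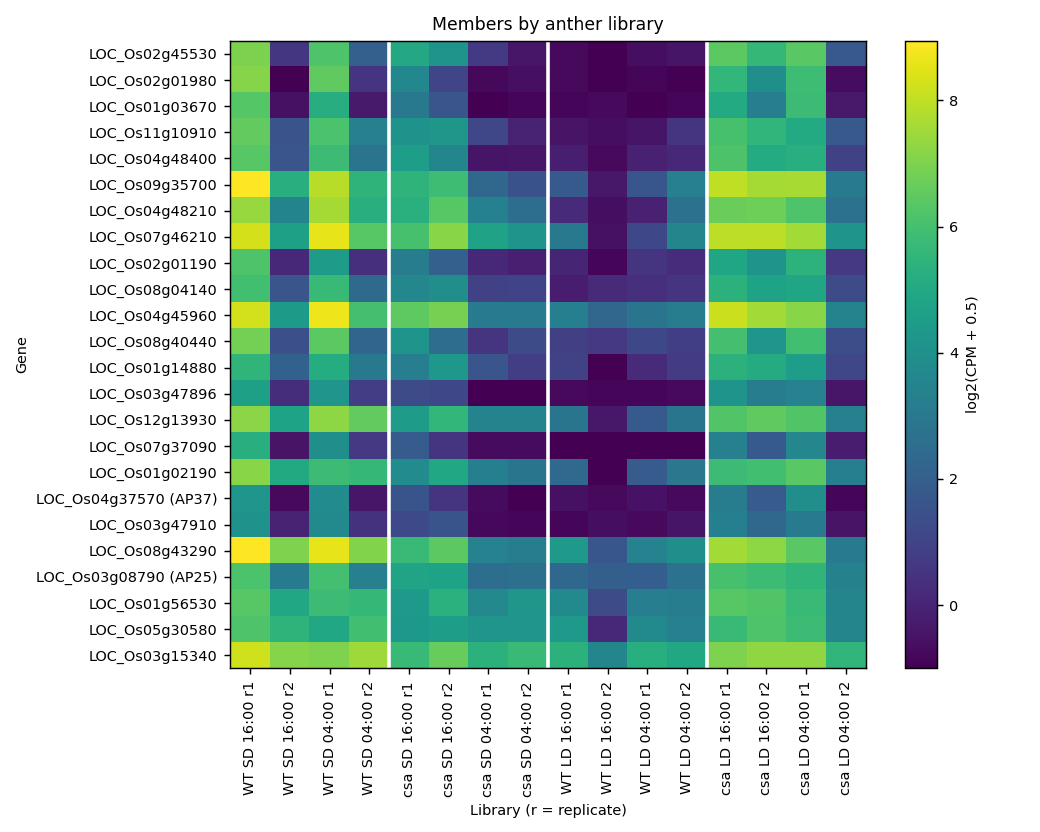
Level of each member, as log2(CPM + 0.5), in the 16 anther libraries, with members ordered by the ratio of csa LD to WT LD and white lines between groups. The first replicates of WT SD and 3 of 4 csa LD libraries are bright, WT LD is dark, and the second csa LD library at 04:00 is dark among its group.

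Values of single members follow in the order 16:00 replicate 1, 16:00 replicate 2, 04:00 replicate 1 and 04:00 replicate 2. AP25 had 69.6, 8.41, 63.0 and 9.53 CPM in WT and 27.6, 26.5, 5.51 and 5.79 CPM in csa under SD. It had 4.67, 3.55, 3.45 and 6.27 CPM in WT LD and 65.3, 55.3, 44.7 and 9.71 CPM in csa LD. The protease transcript was thus high in both first replicates of WT SD and in 3 csa LD libraries, csa SD at 16:00 lay between, and each csa LD library was above each WT LD library. AP25 had the smallest SD ratio of the module, with WT SD at 2.27 times csa SD after 0.5 was added.

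AP37, the second protease, had 17.6, 0.0881, 13.3 and 0.268 CPM in WT and 2.49, 0.947, 0.116 and 0 CPM in csa under SD. In WT LD it stayed between 0.0947 and 0.194 CPM, and csa LD had 8.53, 3.09, 14.7 and 0.0432 CPM. The second replicates of WT SD were thus at the level of WT LD, where AP37 was near the level of a few reads.

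TKPR2 had 78.8, 0.176, 36.3 and 0.321 CPM in WT and 7.57, 2.54, 0 and 0.0526 CPM in csa under SD. WT LD held 0 to 0.0947 CPM, and csa LD had 33.0, 8.96, 56.0 and 0.302 CPM. Both second replicates of WT SD and the last csa LD library held only traces of this sporopollenin enzyme, and its mean under SD was 28.9 ± 37.4 CPM for WT and 2.54 ± 3.55 for csa, and under LD 0.0466 ± 0.0387 for WT and 24.6 ± 25.1 for csa (± standard deviation of 4 libraries).

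The highest ratio of csa LD to WT LD belonged to LOC_Os02g45530, at 90.6 after 0.5 was added. Its levels were 85.9, 48.4, 84.6 and 2.94 CPM in csa LD and 0 to 0.238 CPM in WT LD. In SD it had 126, 0.969, 72.7 and 3.64 CPM in WT and 31.2, 17.3, 1.12 and 0.263 CPM in csa. The second WT SD library at 16:00 was thus below both csa SD libraries of that time.

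LOC_Os02g01980 had the widest gap between WT SD replicates. It had 140, 0, 90.5 and 0.910 CPM in WT and 11.9, 1.59, 0.0770 and 0.158 CPM in csa under SD. WT LD held 0 to 0.0881 CPM and csa LD 47.4, 15.0, 57.2 and 0.130 CPM. No read was counted in the second WT SD library at 16:00, where 3 counts would be 0.132 CPM, and its ratios were the highest of the module in SD (14.8) and 57.0 in LD.

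The next members by this ratio were LOC_Os11g10910 and LOC_Os04g48400, after TKPR2 with 45.9. LOC_Os11g10910 had 92.8, 2.38, 70.1 and 9.53 CPM in WT and 16.8, 18.6, 1.70 and 0.474 in csa for SD, and 0.142 to 0.951 in WT and 65.7, 46.3, 33.5 and 2.94 in csa for LD. LOC_Os04g48400 had 81.4, 2.60, 55.8 and 6.64 CPM in WT and 23.2, 11.4, 0.231 and 0.263 in csa for SD, and 0.0947 to 0.618 in WT and 71.9, 34.1, 38.1 and 1.43 in csa for LD. In both genes every csa LD library was above every WT LD library, and the 04:00 libraries of csa SD held little.

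The 3 members with the highest csa LD means, in CPM that also follow transcript length, showed the same uneven WT SD libraries. LOC_Os07g46210 had 316, 24.8, 376 and 82.1 CPM in WT and 65.2, 146, 26.2 and 17.3 in csa for SD, and 0.189 to 11.2 in WT and 246, 247, 188 and 17.4 in csa for LD. LOC_Os09g35700 had 492, 37.5, 237 and 43.8 CPM in WT and 44.0, 57.9, 4.47 and 2.37 in csa for SD, and 0.284 to 9.65 in WT and 257, 196, 201 and 8.29 in csa for LD. LOC_Os04g45960 had 306, 21.0, 408 and 64 CPM in WT and 87.5, 120, 8.13 and 7.95 in csa for SD, and 4.31 to 9.38 in WT and 285, 188, 145 and 10.4 in csa for LD. In LOC_Os09g35700 the last csa LD library lay within the range of WT LD, and in the other two it was above it.

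LOC_Os08g43290 had 479, 128, 378 and 134 CPM in WT and 52.9, 87.2, 10.2 and 8.74 in csa for SD, and 2.70 to 19.9 in WT and 191, 154, 84.6 and 7.77 in csa for LD. LOC_Os12g13930 had 148, 26.4, 153 and 92.8 CPM in WT and 21.3, 47.4, 10.4 and 10.4 in csa for SD, and 0.284 to 6.80 in WT and 75.9, 90, 74.7 and 9.45 in csa for LD. In LOC_Os08g43290 all 4 WT SD libraries were above all 4 csa SD libraries, whereas in LOC_Os12g13930 the second WT SD library at 16:00 was below the second csa SD library of that time. LOC_Os04g48210 had 168, 10.8, 192 and 37.9 CPM in WT and 39.3, 82.7, 9.90 and 5.53 in csa for SD, and 0.142 to 6.08 in WT and 104, 108, 73.0 and 6.00 in csa for LD, so that its last csa LD library lay just under the highest WT LD library.

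The members with the smallest ratios of csa LD to WT LD came last. LOC_Os03g15340, at 4.01 times, had 299, 142, 128 and 181 CPM in WT and 53.1, 99.8, 41.7 and 53.0 in csa for SD, and 11.4 to 42.0 in WT and 130, 157, 158 and 46.8 in csa for LD. LOC_Os05g30580, at 4.29 times, had 73.1, 43.3, 30.2 and 60.7 CPM in WT and 19.3, 23.6, 17.9 and 17.8 in csa for SD, and 0.615 to 20.0 in WT and 51.7, 72.9, 55.9 and 11.1 in csa for LD. Both genes had every WT SD library above every csa SD library, as did LOC_Os08g43290 and LOC_Os01g02190 and no other member. Over the 24 members the ratio of WT SD to csa SD ran from 2.27 to 14.8 with a median of 4.54, and that of csa LD to WT LD from 4.01 to 90.6 with a median of 19.6, each after 0.5 was added to the means.

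The means of the remaining 9 members ran under SD from 7.79 to 70.6 CPM in WT and from 0.903 to 22.8 in csa, and under LD from 0 to 8.02 in WT and from 5.47 to 55.0 in csa. Among them LOC_Os07g37090 had no read in any WT LD library, and its csa LD values were 9.70, 2.99, 11.5 and 0.345 CPM. Values beside the thresholds were as follows. With 0.5 added, LOC_Os03g47910 was the nearest member on the csa LD mean, at 5.97. LOC_Os11g10920, at 3.78, was the only gene that missed this threshold of 5 and no other. For csa SD as a fraction of WT SD, AP25 was at 0.442 and LOC_Os10g34150 at 0.514, 1 of 49 genes that missed this threshold only, by any distance. For csa LD over WT LD, LOC_Os03g15340 was at 4.01 and LOC_Os05g44120 at 3.94, 1 of 922 genes that missed this threshold only, by any distance.

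The members differed most between replicates in 3 of 8 pairs of libraries. In WT SD at 16:00 replicate 1 was higher for 24 of 24 members, with a median fold of 16.2, and in WT SD at 04:00 for 22 of 24, with a median fold of 6.69. In csa LD at 04:00 it was higher for 24 of 24, with a median fold of 11.8. Among 23507 genes, 3.18%, 3.43% and 3.75% differed by more than 2-fold in these pairs, in either direction, and 23, 19 and 24 members did. In WT LD at 16:00 replicate 1 was higher for 20 of 24 members, 10 of which differed by more than 2-fold (all genes 5.59%), and the sums there were the 136.1 and 27.7 CPM given above. In csa LD at 16:00 it was higher for 18 of 24, 6 of which differed by more than 2-fold (all genes 4.23%). Replicate 1 was higher for 10 of 24 in csa SD at 16:00, 15 of 24 in csa SD at 04:00 and 7 of 24 in WT LD at 04:00. There 12, 2 and 5 members differed by more than 2-fold, where 1.93%, 0.71% and 1.1% of all genes did.

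Of the 23507 genes, 81 were at least 2-fold higher in replicate 1 in all 3 of these pairs and 1 was at least 2-fold higher in replicate 2 in all 3. The 81 genes held 19 of the 24 members and 7 of the 9 genes left out by name, and no other gene of the lists described here. The 5 members outside them were LOC_Os01g02190, LOC_Os01g56530, LOC_Os03g15340, LOC_Os05g30580 and LOC_Os12g13930. The rule read these libraries, so the overlap is a description.

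**Figure D2:**
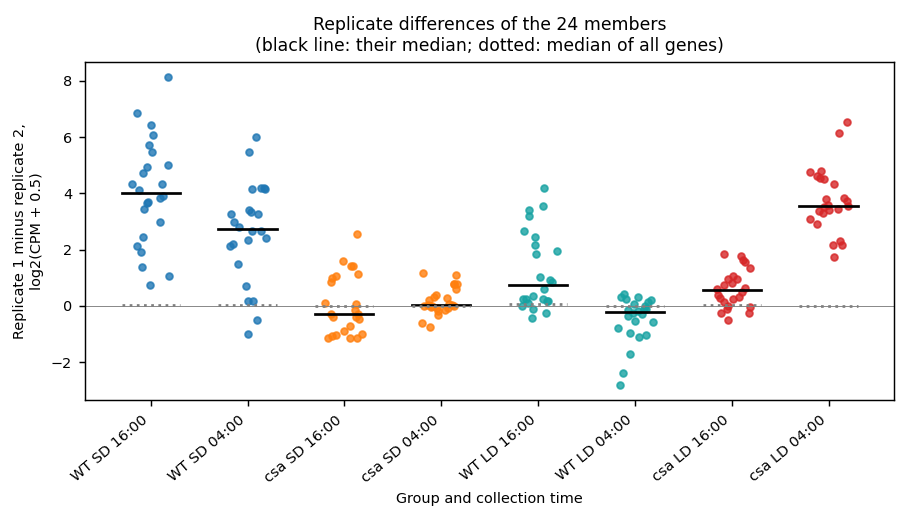
Difference between replicate 1 and replicate 2 of each member, on the log2(CPM + 0.5) scale, in the 8 combinations of group and time. Each point is a member, the black line is the median of the members and the dotted line the median of 23507 genes; the points of WT SD at both times and of csa LD at 04:00 reach farthest above 0, those of WT LD and csa LD at 16:00 lie mostly above 0 with smaller medians, and those of csa SD and of WT LD at 04:00 lie on both sides of 0.

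The choice of members followed those libraries. Without both first replicates of WT SD, 5 genes met the rule, and all were members: LOC_Os12g13930, LOC_Os01g02190, LOC_Os08g43290, LOC_Os05g30580 and LOC_Os03g15340. The median member, on the log2(CPM + 0.5) scale and averaged over libraries, gave a csa minus WT difference of −1.60 in SD, smaller than the larger of the standard deviations of the groups (2.20). Its difference was 0.10 in the 16:00 libraries alone, −3.29 in the 04:00 libraries alone, and 0.23 without both first replicates of WT SD. Member by member, on the mean log2 level, csa SD was below WT SD in 17 of 24 members at 16:00, with a median difference of −0.65, and in 24 of 24 at 04:00, with a median of −3.25, where 40.8% and 50.3% of the tested genes were below. Without both first replicates of WT SD it was below in 12 of 24 over both times, with a median of −0.02, where 40% of the tested genes were below. Against the second WT SD replicate alone, csa SD was below in 5 of 24 members at 16:00, with a median of 1.76, and in 24 of 24 at 04:00, with a median of −1.80, where 40.2% and 48.3% of the tested genes were below. In LD the difference was 4.51 with a larger standard deviation of 2.02, and it was 5.84 at 16:00 and 3.19 at 04:00. Leaving out the second csa LD library at 04:00 gave 5.52.

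Time of day was the contrast in anthers that the rule did not use. Under edgeR's quasi-likelihood test with Benjamini-Hochberg adjustment over 25203 genes, 0 of 24 members passed 0.05 between 04:00 and 16:00 averaged over the 4 groups, where 20.7% of all tested genes did. The count was also 0 in WT SD (background 29.9%), csa SD (15.5%), WT LD (11%), csa LD (19.7%), and for the difference between csa LD and WT SD (36.1%). At an unadjusted p under 0.05 edgeR gave 1 member for the average (all genes 33.6%), 8 in csa SD (31.5%) and 0 in WT SD (41.6%), WT LD (26.8%), csa LD (33.7%) and the difference (46.2%). DESeq2 gave 3 at that threshold for the average (all genes 31.8%), 1 in WT LD (25%), 14 in csa SD (29.4%) and 0 in WT SD (39%), csa LD (31.7%) and the difference (44.2%). After adjustment DESeq2 called 8 members in csa SD (all genes 19.4%) and 0 for the average (22.3%), in WT SD (30.3%), WT LD (13.9%) and csa LD (21.5%), and for the difference (35.5%). The median quasi-dispersion, edgeR's measure of the spread between replicates, was 20.6 over the members and 0.508 over all tested genes. The rule read libraries in which the members differ widely between replicates, and the fit applies 1 spread per gene to all groups. Counts of 0 therefore do not show that the members lack a difference between times, or have less of one than other genes.

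In csa SD both 16:00 libraries were above both 04:00 libraries in 24 of 24 members, as they were in 34% of all tested genes. The ratio of 16:00 to 04:00 means, with 0.5 added, ran from 1.20 to 23.8 with a median of 6.10. The lowest adjusted p in edgeR belonged to LOC_Os04g48400, at 0.0654, with a log2 fold change of −6.08 ± 2.06 (SE). LOC_Os04g45960 followed with −3.68 ± 1.29 and an adjusted p of 0.0748 in the same test. Among all genes the shares called at 04:00 in csa SD were 7.78% higher and 7.72% lower. In some fits without 1 library a few members were called in csa SD, as given beside the genes called in the section on processing.

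In WT SD the ratio of 16:00 to 04:00 means had a median of 1.28 and no member had both libraries of one time above both of the other, which 68.2% of all tested genes had. In WT LD 5 of 24 members had both 04:00 libraries above both 16:00 libraries (background 24%). In csa LD 9 of 24 had both 16:00 libraries above both 04:00 libraries (background 30.4%), and the median ratio was 2.06. The uneven 04:00 pair of csa LD enters this ratio: its libraries held summed levels of 1627 and 162.9 CPM, against 2069 and 1672 CPM at 16:00.

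**Figure D3:**
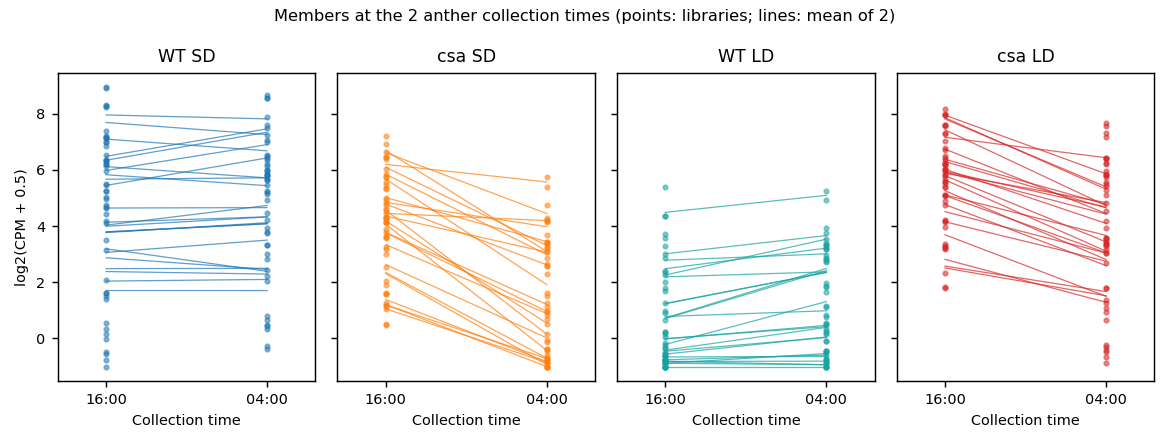
Level of each member at 16:00 and 04:00 in the 4 anther groups, as log2(CPM + 0.5), with a point for each library and a line between the means of 2 libraries. The lines of csa SD all run down from 16:00 to 04:00, those of WT SD run both ways, and the points of WT SD at both times and of csa LD at 04:00 are spread widely.

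The members were nearly absent from flag leaves. Only 3 of 24 passed the filter on low counts there, where 80.5% of the genes tested in anthers passed it. In 22 of 24 the leaf mean was under 0.2 CPM, 5 had no read in any of 48 leaf libraries, and 2 had a read in all of them. LOC_Os04g45960 was the most frequent, with medians from 1.96 to 2.84 CPM over the 4 groups of 12 libraries, and LOC_Os08g40440 had medians from 0.552 to 0.771 CPM. LOC_Os09g35700 had medians from 0.0698 to 0.150 CPM, which is a few reads per library.

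**Figure D4:**
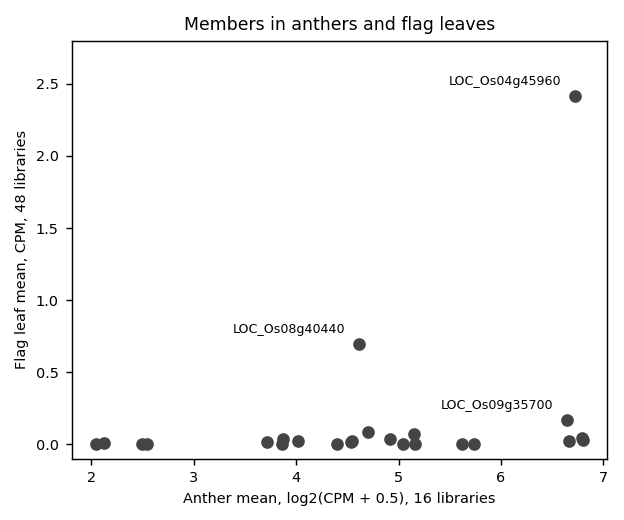
Mean of each member over 48 flag leaf libraries, in CPM, against its mean over 16 anther libraries, as log2(CPM + 0.5). Of 24 members, 22 lie under 0.2 CPM in leaves, and LOC_Os04g45960 and LOC_Os08g40440 stand above them.

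None of the 3 members tested in leaves passed in csa against WT under SD, under LD or for the difference between them, where edgeR called 0.493%, 3.42% and 0.294% of 22095 genes. None passed between SD and LD in WT (background 45.9%) or in csa (43.1%), and none had an unadjusted p under 0.05 in these 5 contrasts, where edgeR gave such a p to 8.85% to 52.5% of all genes and DESeq2 to 8.9% to 52.8%. The genotype labels of the SD leaf libraries at 12:00 are in doubt. Of 7 genes that separated WT from csa LD leaves at the other times by at least 4-fold, 26 of 28 values in those 4 libraries lay nearer the other genotype, against 2 of 28 in the LD libraries at 12:00 and 0 of 140 in the SD libraries of other times. Without the libraries at 12:00 the count of members called was also 0 in the 5 contrasts.

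Between 04:00 and 16:00 in leaves, 2 of the 3 members passed, and 73% of all genes did (37.2% higher and 35.9% lower at 04:00). LOC_Os04g45960 had 1.14 to 2.49 CPM in the 8 libraries at 16:00, with a median of 1.82, and 2.06 to 3.72 CPM at 04:00, with a median of 2.86. It rose at 04:00 by a log2 fold change of 0.65 ± 0.18 (SE; edgeR adjusted p = 0.00183). LOC_Os09g35700 had 0.217 to 0.840 CPM at 16:00, with a median of 0.344, and 0 to 0.155 CPM at 04:00, with a median of 0.0671, so that its 04:00 level was a read or less in most libraries. Its log2 fold change was −2.95 ± 0.71 (SE; edgeR adjusted p = 0.000466), and its groups did not overlap.

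A single leaf library carried anther transcripts. Over 458 genes that averaged 20 CPM or more in anthers and had a median of 0 in leaves, the summed level was 284.1 CPM in the first csa SD library at 16:00, 18.1 CPM in the next library and 7.12 CPM in the median library. AP25 had its highest leaf level there, 1.72 CPM, and 0.538 CPM in the next library. LOC_Os01g14880 had all of its 28 leaf reads in that library.

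The 9 genes left out by name belong mostly to sporopollenin synthesis. They are CYP703A3 and CYP704B2, fatty acid hydroxylases; ACOS12, an acyl-CoA synthetase; PKS1 and PKS2, polyketide synthases; TKPR1, a reductase; DPW, a fatty acyl reductase; ABCG15, an exporter; and MST7, a sugar transporter. Apart from CYP703A3 these names were not found in the reference annotation. Their summed level was 332.8 to 1992 CPM in WT and 83.1 to 532.6 in csa for SD, and 192 to 222.3 in WT and 127 to 1337 in csa for LD.

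For WT SD, csa SD, WT LD and csa LD in turn, PKS1 (LOC_Os10g34360) averaged 388 ± 312, 85.7 ± 82.4, 9.06 ± 10.4 and 236 ± 142 CPM (± standard deviation of 4 libraries). DPW (LOC_Os03g07140), which missed the thresholds, averaged 240 ± 91.4, 65.4 ± 38.0, 165 ± 12.2 and 196 ± 113 CPM. CYP703A3 (LOC_Os08g03682) missed them too, with 81.7 ± 63.7, 12.5 ± 13.8, 18.1 ± 2.01 and 52.8 ± 42.1 CPM. In WT LD the mean of DPW was thus within the spread of WT SD, and that of PKS1 was below it. The median difference between replicates over the 9 genes was 3.37 in WT SD at 16:00, 1.78 in WT SD at 04:00 and 3.78 in csa LD at 04:00, on the log2(CPM + 0.5) scale, beside 4.02, 2.74 and 3.56 for the members.

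Several regulators of the tapetum fell in csa under both photoperiods, among them the factor upstream of AP25 and AP37. EAT1 (LOC_Os04g51070) fell from 124 ± 30 to 47.1 ± 9.85 CPM in SD (log2 −1.43 ± 0.11, edgeR adjusted p = 4.89e-06) and from 142 ± 17.2 to 93.0 ± 43.0 CPM in LD (−0.82 ± 0.11, edgeR adjusted p = 0.000336). In LD it had 157.3 and 154 CPM in WT and 136.9 and 121.7 in csa at 16:00. At 04:00 it had 137.5 and 119.7 CPM in WT and 65.7 and 47.7 in csa. By the rule, AP25 and AP37 had higher means in csa LD (43.75 and 6.58 CPM) than in WT LD (4.49 and 0.14 CPM). The part of EAT1 in their levels was not tested. GAMYB (LOC_Os01g59660) and TDR (LOC_Os02g02820), regulators of tapetum development, fell by 0.55 and 0.54 in SD and by 0.66 and 0.53 in LD on the log2 scale. The SD difference of TDR was seen at 16:00, with 149.4 and 161 CPM in WT and 62.3 and 79.2 CPM in csa, whereas at 04:00 both csa libraries (90.1 and 92.1 CPM) were above both WT libraries (77.1 and 84.5 CPM). Of 8 tapetum regulators, 1 rose and 5 fell in SD and 1 rose and 4 fell in LD, where 25.8% and 21.7% of all genes rose and fell in SD, and 18.7% and 16.5% in LD. The list medians were −0.95 in SD and −0.26 in LD, beside 0.08 and 0.04 for all genes. These counts share the WT and csa libraries with the rule.

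Other genes of tapetum secretion and the pollen wall, without members, had 2 of 9 tested genes rise and 4 fall in SD, and 2 rise and 4 fall in LD, of 11 in the list. C6 (LOC_Os11g37280), a lipid transfer protein, lay just past the threshold in SD with a log2 fold change of −1.03 ± 0.39 (edgeR adjusted p = 0.0495) and had 0.37 ± 0.39 in LD (adjusted p = 0.498). RAFTIN1 (LOC_Os08g38810), a protein of the orbicules that coat the tapetum, fell by 1.5 in SD and by 1.20 in LD on the log2 scale, and ABCG26 (LOC_Os10g35180), a transporter of wall precursors, by 1.64 and 1.20. WDA1 (LOC_Os10g33250), needed for anther wax, rose by 0.85 in SD and 0.36 in LD.

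Of 7 late pollen genes, 0 rose and 5 fell in csa under SD, and 0 rose and 7 fell under LD, with list medians of −3.98 and −3.09. Their summed level was 63.9 to 177 CPM in WT and 8.74 to 12.5 in csa for SD, and 196.4 to 570.1 in WT and 5.32 to 107 in csa for LD. MADS63 (LOC_Os06g11970), a MADS-box factor of mature pollen, had means of 32.7 ± 16.4, 0.223 ± 0.115, 54.0 ± 21.3 and 8.46 ± 5.27 CPM in the order WT SD, csa SD, WT LD and csa LD (± standard deviation of 4 libraries). The summed level of the late pollen genes was thus highest in WT LD, where that of the members was lowest. Each csa LD sum lay below each WT LD sum. EXPB1 (LOC_Os03g01610) averaged 193 CPM of the mean WT LD sum of 386 CPM. SWEET5 (LOC_Os05g51090) alone had a lower mean in WT LD (20.6 CPM) than in WT SD (31.4 CPM). SUT1 (LOC_Os03g07480) and RUPO (LOC_Os06g03610) averaged more in csa LD (10.7 and 6.11 CPM) than in WT SD (6.98 and 1.46 CPM). The other genes of the list averaged less in csa LD than in WT SD.

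Of 14 meiosis genes, 0 rose and 2 fell in SD and 2 rose and 2 fell in LD, with list medians of −0.02 and 0.08. Their summed level ran from 157.1 to 216.6 CPM in WT and 155.4 to 159.1 in csa for SD, and 248.6 to 262.2 in WT and 155.7 to 175.1 in csa for LD. In the order WT SD, csa SD, WT LD and csa LD the sums averaged 192.3, 157.3, 254.8 and 163.1 CPM. MEL1 (LOC_Os03g58600), an Argonaute protein of germ cells, had means of 38.8 ± 14.7, 5.71 ± 1.31, 112 ± 13.8 and 16.5 ± 5.77 CPM in the same order. The lower sums in csa were thus mostly the fall of MEL1. Of 6 photosynthesis genes, 6 rose in SD and 2 in LD (CAB1R and CAB2R, antenna proteins), and none fell. In SD both csa libraries at 04:00 were above both WT libraries for all of them. At 16:00 the libraries of the genotypes overlapped for all but CAB2R. RBCS3 (LOC_Os12g19381), for example, had 466.4 and 806 CPM in WT and 1151 and 777.4 in csa at 16:00. At 04:00 it had 202.6 and 271.4 CPM in WT and 1142 and 890.3 in csa. The LD count was 0 without any 1 of 5 libraries, namely the second of WT LD or of csa LD at 16:00, either of WT LD at 04:00 and the second of csa LD at 04:00. Their summed level was 547.5 to 2661 CPM in WT and 1878 to 3510 in csa for SD, and 1114 to 1790 in WT and 1363 to 2127 in csa for LD. The part of these lists in the members' levels was not tested.

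**Figure D5:**
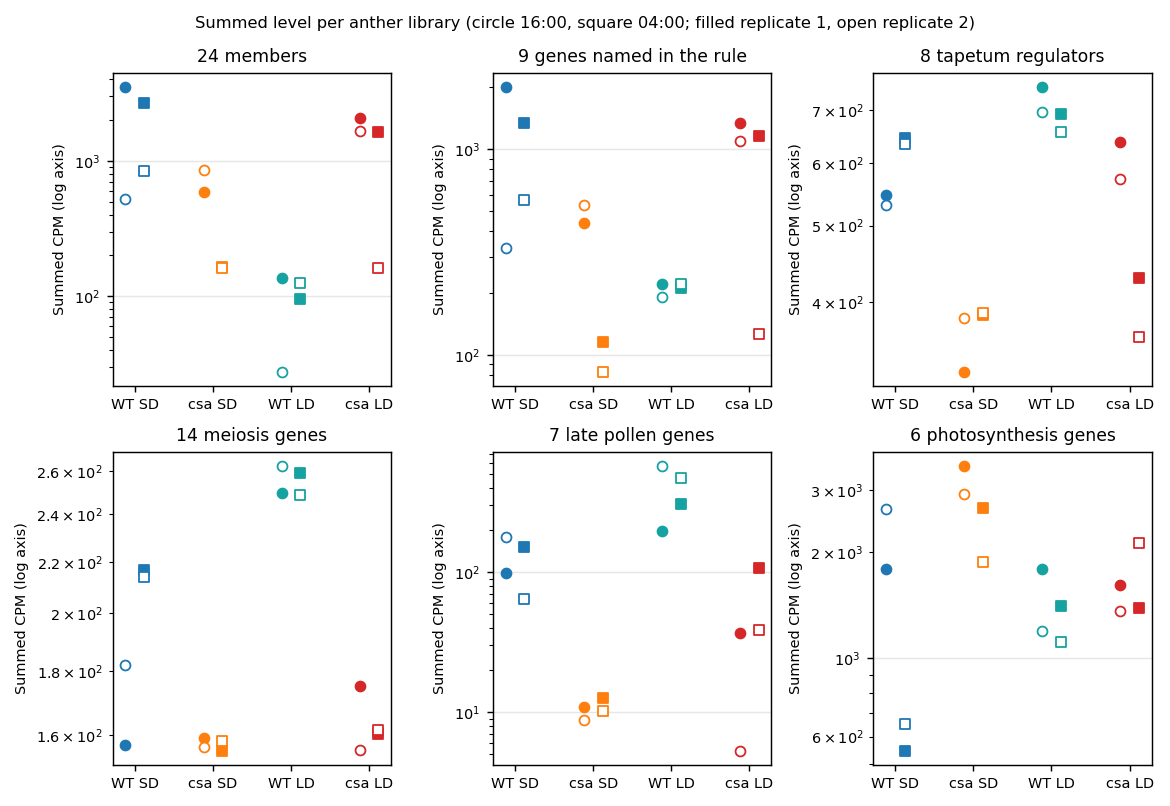
Summed level, in CPM on a log axis, of the members, the 9 genes left out by name and 4 other lists in each of the 16 anther libraries. Circles are 16:00 and squares 04:00, filled symbols replicate 1 and open symbols replicate 2; the first 2 panels share the split of WT SD and the low second csa LD library at 04:00, and the late pollen panel is highest in WT LD.

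In the pairs where the members differed most, the other lists had smaller median differences between replicates. In WT SD at 16:00, WT SD at 04:00 and csa LD at 04:00 the median log2 difference of replicate 1 from replicate 2 was 0.10, 0.07 and 0.08 over the meiosis genes and 0.11, 0.03 and 0.49 over the tapetum regulators. It was −0.84, 0.62 and 0.85 over the late pollen genes and −0.64, −0.21 and −0.62 over the photosynthesis genes. In each of the remaining pairs some list had a larger median difference in size than the members. For csa LD at 16:00 it was 1.73 over the late pollen genes and 0.55 over the members. For csa SD at 04:00 it was 0.52 over the photosynthesis genes and 0.03 over the members. The members were spread over 10 of the 12 chromosomes, with 4 each on chromosomes 1, 3 and 4. The closest were LOC_Os03g47896 and LOC_Os03g47910, whose locus numbers were 14 apart and whose csa LD means were 9.14 and 5.47 CPM.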

How the data were processed

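RNA sequencing of anthers and flag leaves had been deposited by the authors as 2 tables of raw counts per gene. Neither aligner nor counting program, build or annotation is stated in the sources at hand, so coordinates and sequences are left out. All 64 columns were matched to samples by label. CPM were computed on column totals and not scaled by gene length, so an order of genes by CPM also follows transcript length. Each tissue was fitted with edgeR 4.0.16 in R 4.3.3 (filterByExpr, TMM, trended dispersion, quasi-likelihood F-test on means of the groups of genotype, photoperiod and time), with Benjamini-Hochberg adjustment over all tested genes at 0.05. The filter kept 25203 genes in anthers and 22095 in leaves. The test was tried on simulated counts in which every gene had the trended dispersion, so the trial does not cover genes with the members' spread between replicates. Alternatives were DESeq2 1.42.0, RLE scaling, no filter, a replicate block, leaves without 12:00 and each library left out.

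Members and gene lists were chosen with earlier results of these data known. List symbols were written from memory: of 62, 30 were found in the RefSeq table on the chromosome of the identifier, 2 on another and 30 not, and no identifier of the tables occurs there. Members were named if in a list, by the 8 highest csa LD means, the 5 highest csa LD to WT LD ratios, the 5 highest leaf means, a leaf call or a place beside a threshold, and up to 4 other genes per list by anther mean; other names were chosen after their values were seen. Replicate numbers were not taken to pair libraries in the main fit. Correlations of replicate differences over all tested genes lay between −0.311 and 0.332 over 28 pairs of anther groups and between −0.258 and 0.231 over 276 pairs of leaf groups. Whether a smaller set of genes shared an effect of replicate number was not tested.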

Additional observations from a re-analysis of the deposited data

Results flagged for a closer look

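The second csa LD library at 04:00 stood far from the other 3 of its group on the log2(CPM + 0.5) scale. The gap to the nearest library, as a share of the range of the group, was 0.897 for the median member, and among single members 0.92 for LOC_Os09g35700, 0.86 for LOC_Os04g48210, 0.895 for LOC_Os07g46210, 0.845 for LOC_Os08g04140, 0.916 for LOC_Os12g13930 and 0.84 for LOC_Os03g15340. These were 7 of 100 groups of 4 libraries examined, and all 7 marked this library. The 100 were the members and their median in the same 4 groups, so they are not independent and their number is not set against chance. A gap at the end of a range cannot mark an even split of a group, as in WT SD. The low library held 162.9 CPM summed over members against 1627 to 2069 in the other 3. Its tapetum regulators also had the lowest sum of the group, 361.7 CPM, against 428.8 CPM in the other 04:00 library and 573.5 and 636.9 CPM at 16:00. Its photosynthesis genes had the highest sum, 2127 CPM against 1363 to 1619, and its meiosis genes lay within the range of the group. Their part in the members' level was not tested.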

How the results depend on the processing

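The number of members called between collection times in anthers was 0 under RLE scaling in each contrast and 0 under DESeq2 and the replicate block in all but csa SD, where they gave 8 and 4. Over all genes DESeq2 called 4499 of 23248 in csa SD, and the block called 3284 of 25203. With no filter on low counts edgeR called 21 members on average over groups, 11 for WT and 23 for csa under SD, 7 for WT and 16 for csa under LD, and 15 for csa LD minus WT SD. Of the 38063 genes in that fit it called 5956, 7976, 4906, 3848, 5911 and 9514 in the same order. That fit gave every gene the trended spread, with an infinite prior and a median quasi-dispersion of 0.516 over members, where the filtered fit gave 20.6, so these calls ignore the spread between replicates of the members. Leaving out 1 library gave 0 to 2 members on average and for csa LD minus WT SD, 0 to 3 in csa SD, and 0 to 1 in WT LD and csa LD. On average there was 1 call without the second WT LD library at 16:00 and 2 without the first csa LD library at 04:00. In csa SD there were 2 without either WT SD library at 16:00 and 3 without either csa LD library at 04:00. Without the first WT LD library at 16:00 there was 1 call in WT LD, and without the first csa LD library at 04:00 there was 1 in csa LD and 1 for csa LD minus WT SD, which had 2 without the first WT SD library at 16:00. The genes called then ran from 3105 to 7889 for WT and 1046 to 4735 for csa under SD, and from 812 to 3065 for WT and 2077 to 5329 for csa under LD, lowest without a library of the group itself; a group left with 1 library was assumed to vary like the others.

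In leaves, csa against WT called 109 genes in SD and 194 under DESeq2, 505 with no filter and 271 without the 12:00 libraries. In LD it called 756 genes and 1136, 1515 and 326 in that order, and for SD minus LD 65 genes and 244, 642 and 29, with 32 without the second WT LD library at 00:00 and 147 without the first at 04:00 as the extremes over 1 library left out. Of the LD calls 52.2% were higher in csa, and 62.8% under DESeq2. The 2 members called between times in leaves were called under every alternative. What libraries of the same replicate number share is not known, and the block moved no other count of members or genes by over 1.5 times.

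The SD difference of the median member was 0.10 in the 16:00 libraries and 0.23 without both first replicates of WT SD, an alternative chosen after the data were seen, which left 5 genes meeting the rule and 5 members. Member by member, csa SD was below WT SD in 17 of 24 at 16:00 (median −0.65) and in 12 of 24 without those libraries (median −0.02). Its range was −2.43 to −0.90 when 1 library was left out, and the LD difference ran from 4.11 to 5.52. The rule kept 21 to 24 members without 1 library. Low counts limit what can be said of the members in WT LD and in leaves.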
